A study of Mus musculus with 2 samples.

Results

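The genes described here are the 145 genes whose symbol begins with Ccdc and a number, for coiled-coil domain containing, out of 23234 genes in a table of RNA-seq values from mouse round spermatids. The rule used the symbol alone and no measured value. Round spermatids are haploid male germ cells that have completed meiosis and have not yet begun to elongate. The table holds 1 library from wild-type mice and 1 library labelled Epc-dKO, from mice deficient for both Epc1 and Epc2, whose proteins belong to the NuA4/TIP60 complex, an acetyltransferase of histones. Both libraries came from the C57BL/6 strain. The sources used here give neither the age of the mice, nor how the deficiency was produced, nor whether animals were pooled.

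The values are FPKM, fragment numbers divided by transcript length and by library size, so levels can be set side by side between genes. Values are given for wild type first and for the library labelled Epc-dKO second. The change is the log2 ratio of FPKM + 1, the library labelled Epc-dKO over wild type, which makes the change of low genes look smaller than it is. A gene is called expressed when its FPKM averaged 1 or more across the libraries, and the words rose and fell are kept for expressed genes past 2-fold on this scale. With 1 library per genotype there is no replicate check and no p-value. The read depth is unknown, so no counting interval is given.

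A coiled coil is a rod in which helices wind around each other, and proteins with long coiled coils often serve as rulers, tethers and scaffolds. The Ccdc symbol is a naming convention and not a gene family by descent. Several members build the axoneme, the microtubule core of cilia and of the sperm tail. Ccdc39 and Ccdc40 form the molecular ruler that sets the axonemal repeat, and loss of either gives immotile cilia. Other members act at centrosomes, in the acrosome, in splicing, in membrane traffic or in mitochondria, so the members were divided into 10 lists by known role, and 33 members stood in none of them.

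Of the 145 Ccdc genes, 111 were expressed and 34 lay below the minimum. In the library labelled Epc-dKO, 2 of the 111 had risen (1.8%, against 2.75% of all 10438 expressed genes) and 0 had fallen (against 1.88%), while 109 lay within 2-fold. The 2 that rose were Ccdc42b and Ccdc91. Read against the background, the share that rose was not above that of all genes. The median log2 ratio of the 111 was 0.13, with quartiles of -0.12 and 0.33, beside a median of -0.05 and quartiles of -0.34 and 0.24 over all expressed genes. A log2 ratio above 0 was found for 68 of the 111 (61.3%) and for 45.6% of all expressed genes. Across the 111 genes, which share the same pair of libraries and are not replicates, Pearson's r of log2(FPKM + 1) between the libraries was 0.985 and Spearman's rho was 0.981; over all expressed genes these were 0.914 and 0.897.

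**Figure D1:**
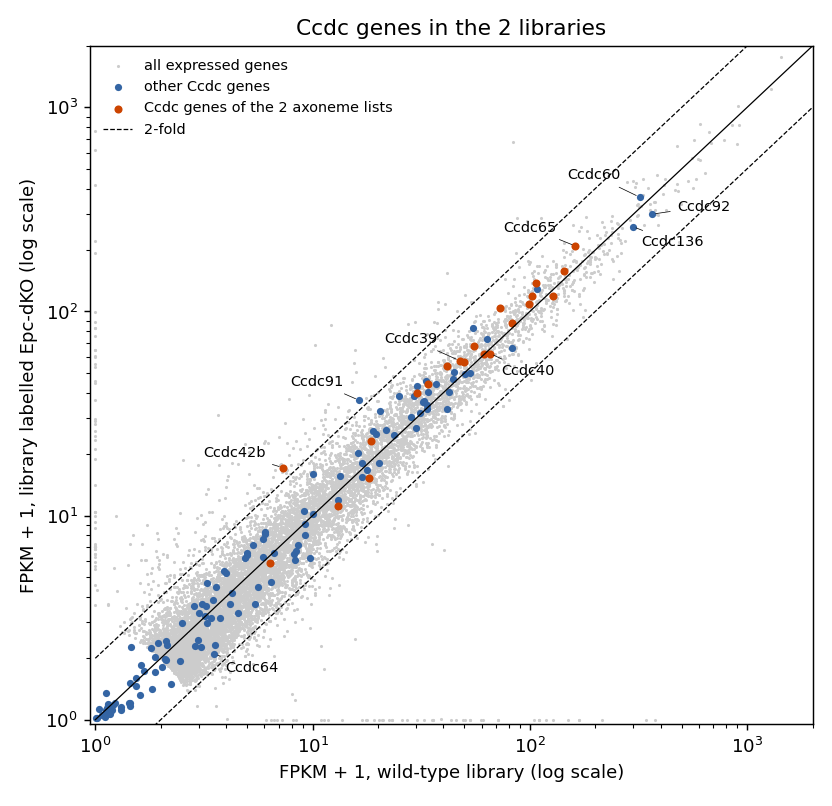
Each point is a gene, with FPKM + 1 in the wild-type library on the x axis and in the library labelled Epc-dKO on the y axis, both on log scales; grey marks all expressed genes, blue and orange the 145 Ccdc genes, and the dashed lines 2-fold. Ccdc42b and Ccdc91 lie above the upper dashed line, and no expressed Ccdc gene lies below the lower one.

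The library labels were checked against the targeted genes and against cell type markers. Epc1 had 11.4 FPKM in wild type against 13.6 in the library labelled Epc-dKO, and Epc2 had 7.12 and 10.5, so neither was lower where the label names a deficiency. Values per gene do not show whether part of a gene is missing, and the reason was not tested. Every direction is given as that of the library labelled Epc-dKO. All 10 round spermatid markers were expressed, with summed FPKM of 800 and 870. The 6 late spermatid markers, among them the protamine genes, summed to 414 and 1450, and 5 of them rose. The 11 spermatogonial markers summed to 38.1 and 17.0, with 9 expressed and 2 that fell. The 7 spermatocyte markers summed to 56.1 and 44.4, and 1 of them fell, Tex101, with 12.4 and 5.69. The 5 Leydig cell markers summed to 29.5 and 22.0, and 1 of them fell, Insl3, with 14.9 and 6.79, while the median log2 ratio of the 5 was -0.03. The 7 Sertoli cell markers in the table summed to 10.3 and 6.61 and the 4 peritubular markers to 10.5 and 5.59. Only 1 of the Sertoli and 2 of the peritubular markers were expressed, so only these could rise or fall by the rule, and none did. None of these markers was listed at 0 in either library. These shifts accompany every comparison of the Ccdc genes, and their part in it was not tested. In bulk samples fewer cells of a type and less RNA per cell cannot be told apart.

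Many Ccdc genes were abundant in round spermatids. The median expressed member had 12.4 FPKM in wild type against 14.7 in the library labelled Epc-dKO, against 5.21 and 5.04 over all expressed genes. A mean FPKM of 20 or more was reached by 48 members (43.2% of those expressed, against 21% of all expressed genes), and 10 members reached 100 (9.01% against 3.31%). These 10 were Ccdc60, Ccdc92, Ccdc136, Ccdc65, Ccdc19, Ccdc96, Ccdc38, Ccdc81, Ccdc104 and Ccdc108, of which 6 belong to the axoneme lists. Ccdc60 stood at rank 44 of all genes by mean FPKM, with 319 in wild type against 363 in the library labelled Epc-dKO. Ccdc92, whose protein is found at the centriole, stood at rank 47, with 365 and 299. Ccdc136, a gene needed for acrosome formation, stood at rank 58. All 3 lay well within 2-fold, and Ccdc60 was higher and the others lower in the library labelled Epc-dKO.

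Promoter sequences of some members, from the abundant Ccdc60 to the low Ccdc160, are shown because they hold a stretch with the letters of the X-box, the element bound by RFX transcription factors, which control many ciliary genes. In the RefSeq promoter table (GRCm38.p6, 250 bases before to 50 after each start), 120 of the 145 members had an entry, and 4 motifs were searched on both strands. A loose X-box form (GT, 2 free bases, CC, 2 free bases, G, 2 free bases, AC) was present for 11 of the 120 members (9.17%), against 4.25% of 27025 genes with an entry. It was present for 5 of 16 members of the axoneme lists, among them Ccdc65, Ccdc38, Ccdc147 and Ccdc103. A second X-box form with fewer free bases was found in 0 of the 120 (0.0851% of all genes). It has 14 bases and the loose form 13, so it is not a stricter case of the loose form. The loose letters were not searched at the 14-base spacing, so these shares count the 13-base form only. Of the matches, 7 are given 5′ to 3′ on the gene's strand, with the match in capitals and 10 bases on each side. In Ccdc65, Ccdc103, Ccdc110 and Ccdc160 the capitals fit the loose form only when read on the opposite strand.
Ccdc60, chr5:116289001-116289033, minus strand: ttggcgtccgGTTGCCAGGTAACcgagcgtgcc
Ccdc65, chr15:98708171-98708203, plus strand: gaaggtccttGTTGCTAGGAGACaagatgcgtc
Ccdc147, chr19:47937643-47937675, plus strand: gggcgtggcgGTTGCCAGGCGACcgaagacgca
Ccdc103, chr11:102881211-102881243, plus strand: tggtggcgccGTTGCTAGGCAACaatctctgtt
Ccdc110, chr8:45934606-45934638, plus strand: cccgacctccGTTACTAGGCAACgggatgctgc
Ccdc160, chrX:52791145-52791177, plus strand: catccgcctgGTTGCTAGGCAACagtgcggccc
Ccdc38, chr10:93540581-93540613, plus strand: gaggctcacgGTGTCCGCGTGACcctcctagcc

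The capitals begin 38 bases before the annotated start in Ccdc60, 13 in Ccdc65, 59 in Ccdc147, 3 in Ccdc103 and Ccdc110, 45 in Ccdc160 and 41 in Ccdc38. Among the other matches were those in Ccdc18, Ccdc43 and Ccdc71, and Ccdc39 and Ccdc40 had entries without a match. The expressed members with a match, 10 of the 11, had a median of 49.3 FPKM in wild type against 58.1 in the library labelled Epc-dKO, and the 83 expressed members with an entry and no match had 15.2 and 14.7. Their median log2 ratios were 0.23 and 0.07, and 7 of the 10 with a match and 48 of the 83 without one lay above 0. The members with a match were the more abundant. Of all Ccdc genes at a mean FPKM of 20 or more, 77.1% lay above 0, so match and level are not separated here. The match did not go with a single direction: Ccdc147 had a log2 ratio of 0.50 and Ccdc160 one of -0.62. A match describes letters and does not show that a factor binds there. Having no match means only that the 13-base loose form was absent, since its letters were not searched at other spacings.

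The cAMP response element, the site of the spermatid regulator CREM, was searched as TGACGTCA and as TGACGT, which the longer form contains. TGACGTCA was present for 2 of the 120 members (1.67%, against 2.03% of all genes), Ccdc130 and Ccdc86, and TGACGT for 13 (10.8% against 8.37%). No member of the axoneme lists held it in these windows. Ccdc136, among the most abundant members, held the shorter form, shown here with the match in capitals.
Ccdc136, chr6:29396455-29396480, plus strand: ggcactttagTGACGTgttttgaacc

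Within the axoneme, the first list held 9 genes for the ruler, for the nexin-dynein regulatory complex that links neighbouring microtubule doublets, and for the attachment of dynein arms. All 9 were expressed, 0 rose, 0 fell, and the median log2 ratio was 0.08, with 6 of 9 above 0. Of the ruler pair, Ccdc39 had 46.6 and 56.4 FPKM (log2 ratio 0.27). Its partner Ccdc40 had 64.8 and 61.2, a log2 ratio of -0.08. The pair thus lay on opposite sides of 0, both within 2-fold, and the gap between the partners narrowed from the wild-type library to the other.

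Of the nexin-dynein regulatory genes, Ccdc65, which encodes the subunit also known as DRC2, was the most abundant, with 161 FPKM in wild type against 208 in the library labelled Epc-dKO. Ccdc164, listed by RefSeq as Drc1, had 60.5 and 61.2. Ccdc135, listed as Drc7, had 32.9 and 43.3. Ccdc65 and Ccdc135 had log2 ratios of 0.37 and 0.39, and Ccdc164 was nearly equal in both libraries, at 0.01. Among the genes for docking the outer dynein arm, Ccdc151 had 29.4 and 38.8, a log2 ratio of 0.39. Ccdc114 had 12.1 and 10.1 (-0.23), whereas its relative Ccdc63, known for a role in the sperm tail, had 82.0 and 86.6 (0.08). The sperm relative thus stood at the higher level in both libraries. Ccdc103, for a dynein attachment factor, was the lowest of the 9, with 5.38 and 4.88.

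The second list held 15 genes of other axoneme and flagellum proteins, of which 12 were in the table and all 12 were expressed. Of these 1 rose, 0 fell, and 10 lay above 0, with a median log2 ratio of 0.26. The one that rose was Ccdc42b, listed by RefSeq as Cfap73, with 6.28 and 16.2 FPKM (log2 ratio 1.24). In green algae the proteins of Cfap73 and Cfap100 form a complex at the inner dynein arms. Cfap100, given in the table as Ccdc37, had 17.1 and 14.3, a log2 ratio of -0.24, the lowest of the 12. The order of the 2 genes was thus reversed between the libraries.

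Ccdc42b shares exonic bases with the helicase gene Ddx54 on the opposite strand in GENCODE M21. The libraries kept the strand, but the sources used here give no strand setting for the quantification. Whether reads from the shared bases were assigned by strand is thus not known. Ddx54 had 13.4 in wild type against 15.4 in the library labelled Epc-dKO (log2 ratio 0.18). Iqcd, a nearby coding gene on chromosome 5 that encodes another regulatory complex subunit, had 37.1 and 38.7. Neither of these neighbours passed 2-fold. The largest shift among the coding neighbours was that of Dtx1, at 2.66 in wild type against 0.891 in the library labelled Epc-dKO. Its log2 ratio of -0.95 lay within 2-fold and opposite in direction to Ccdc42b. Ccdc42 itself, needed for sperm tail formation, had 54.6 and 66.6, a log2 ratio of 0.28.

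The other 11 genes of this list lay within 2-fold. Ccdc19, for a protein inside the doublet microtubule (Cfap45 in RefSeq), had 143 FPKM in wild type against 156 in the library labelled Epc-dKO. Ccdc38, a sperm flagellum gene, had 106 and 137. Ccdc147, listed as Cfap58, had 72.1 and 103, a log2 ratio of 0.50, the highest of the list after Ccdc42b. The partner genes Ccdc96 and Ccdc113, whose proteins associate in cilia, had log2 ratios of -0.10 and 0.39. Ccdc96 stood at 127 and 118, and Ccdc113 at 40.5 and 53.3.

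**Figure D2:**
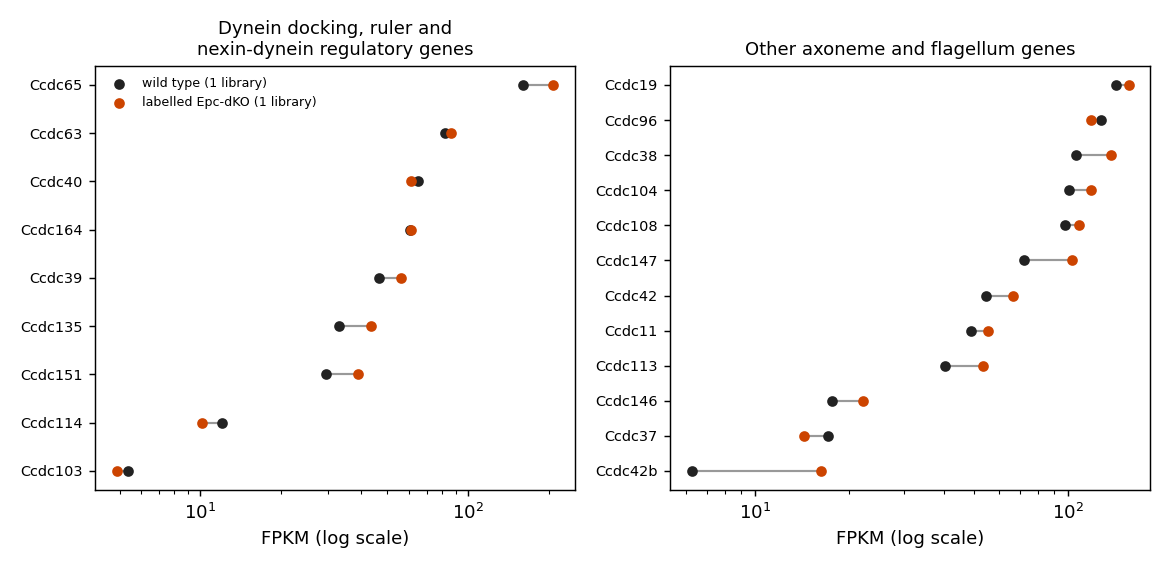
FPKM on a log axis for the 9 genes of the first and the 12 genes of the second axoneme list; black points are the wild-type library and orange points the library labelled Epc-dKO, and a line joins the pair of each gene. The longest line is that of Ccdc42b, from 6.28 to 16.2, and most other pairs lie close together with the orange point to the right.

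Taking both axoneme lists, 16 of 21 genes had a log2 ratio above 0 and the median was 0.23, beside 0.09 for the 90 expressed Ccdc genes outside them. Over all expressed genes 45.6% lay above 0. The 21 were also more abundant, with a median of 54.6 FPKM in wild type against 7.85 for the 90. Of all Ccdc genes at a mean FPKM of 20 or more, 77.1% lay above 0, as did 16 of 20 in the acrosome and testis list. The excess is thus not particular to the axoneme lists. The summed FPKM of the 21 was 1327 in wild type against 1540 in the library labelled Epc-dKO. The other axonemal genes, taken from a list of 21 partners without a Ccdc symbol, lay in the same range: 17 were in the table and expressed, 0 rose, 0 fell, 13 lay above 0, and the median was 0.16. The most abundant were Rsph1, a radial spoke gene, with 389 FPKM in wild type against 297 in the library labelled Epc-dKO, and Tekt2, for a tektin filament protein, with 186 and 229. The late spermatid markers were higher in the same library, as given above.

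The list of acrosome, sperm head and testis-enriched genes held 31 symbols, of which 21 were in the table and 20 were expressed. None of the 20 rose or fell, 16 lay above 0, and the median log2 ratio was 0.19. Ccdc136 had 296 and 260 FPKM (log2 ratio -0.19), so that it was among the 4 that lay below 0. The largest ratios were those of Ccdc33 and Ccdc7. Ccdc33 had 24.1 and 37.3 (0.61). Ccdc7 had 53.5 and 82.2 (also 0.61), and RefSeq lists this symbol as Ccdc7a beside a second gene, Ccdc7b, with which it may share reads. Ccdc62 and Ccdc87, both with known roles in the acrosome, had log2 ratios of 0.25 and 0.16. Ccdc81 had 107 and 127. At the low end, Ccdc73 had 3.54 and 2.32 (-0.45), and it shares exonic bases with Eif3m on the opposite strand, a translation factor gene with 7.90 and 5.24.

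Genes of the meiotic chromosomes were low, with an exception. Ccdc155, listed as Kash5, which ties telomeres to dynein in meiosis, had 41.2 FPKM in wild type against 39.3 in the library labelled Epc-dKO. Ccdc79 (Terb1), a telomere gene of the same process, had 2.91 and 4.33, and Ccdc36 (Iho1), needed for recombination breaks, had 2.98 and 4.21. Their log2 ratios were -0.07, 0.45 and 0.39. The spermatocyte markers as a group had a median of -0.13.

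The list of centrosome, centriole and cilium base genes had 15 with a value, and 12 of them were expressed. It leaves out Ccdc92 and the centrosomal genes Ccdc45, Ccdc46 and Ccdc21, which stood in no role list. Of the 12, 8 lay above 0, none rose or fell, and the median was 0.31. Ccdc13, a centriolar satellite gene, was the most abundant of the list. It was lower in the library labelled Epc-dKO, with 82.1 in the wild-type library and 65.1 there, a log2 ratio of -0.33. Ccdc67, listed as Deup1 and known for making centrioles in multiciliated cells, had 32.4 and 44.9 (0.46). Ccdc66 had the largest ratio of the list, at 9.02 and 15.0 (0.67). Ccdc41 (Cep83) and Ccdc123 (Cep89), which share the distal appendages of the mother centriole, had 28.2 and 37.4, and 29.0 and 25.8. The genes of 1 structure thus lay on both sides of 0.

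**Figure D3:**
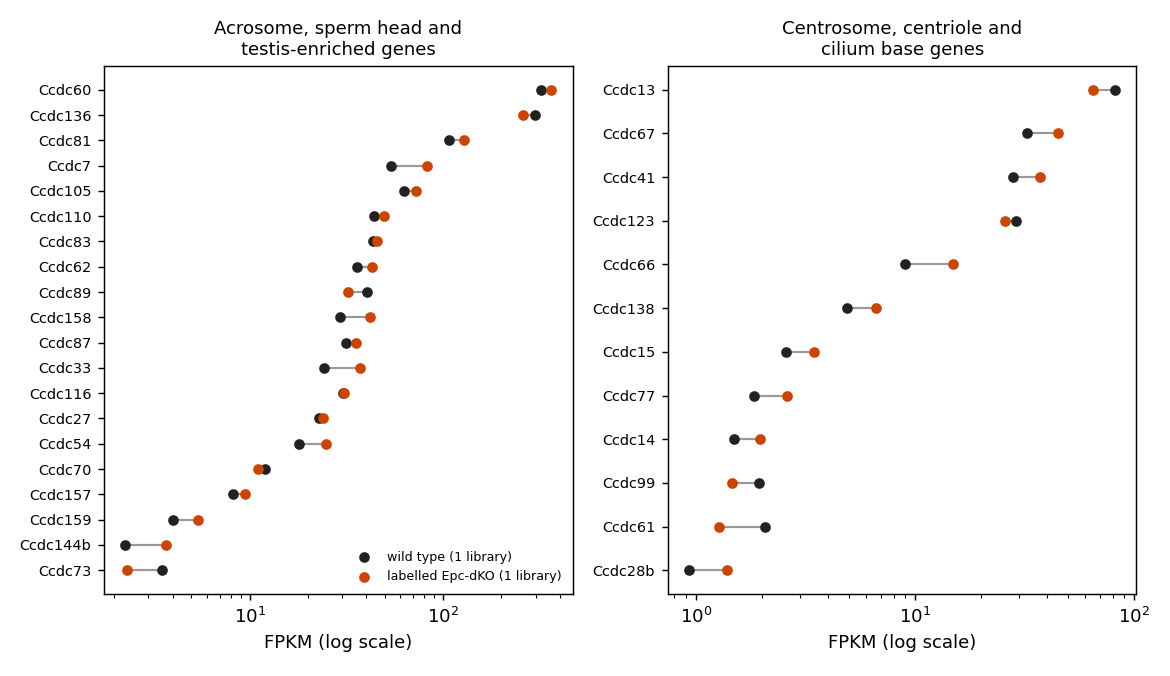
FPKM on a log axis for the 20 expressed acrosome, sperm head and testis-enriched genes and the 12 expressed centrosome, centriole and cilium base genes; black points are the wild-type library and orange points the library labelled Epc-dKO. The testis list reaches from 2.28 to 319 in the wild-type library, and no pair in either panel is 2-fold apart on the FPKM + 1 scale.

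Nuclear members were nearly centred on 0. Of 17 with a value, 15 were expressed, 7 lay above 0, none rose or fell, and the median log2 ratio was -0.02, turning to 0.03 when the libraries were scaled to a median ratio of 1. Ccdc101, listed as Sgf29, a chromatin reader of the SAGA histone acetyltransferase complex, was the most abundant, with 51.8 FPKM in wild type against 49.2 in the library labelled Epc-dKO. The splicing-factor relatives Ccdc130 and Ccdc94 (Yju2) differed in level, with 27.4 and 29.5 for the first and 3.19 and 2.69 for the second. The lowest ratios were those of Ccdc12, a spliceosome gene, with 5.47 and 3.72 (-0.45), and Ccdc71, with 7.27 and 5.06 (also -0.45).

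Membrane traffic, endoplasmic reticulum and cytoskeleton linker genes held the other riser and the expressed member with the lowest ratio. Of 17 with a value, 13 were expressed, 1 rose, 0 fell, and the median was 0.08, turning to -0.05 on the TPM scale. Ccdc91, whose protein binds GGA adaptors at the trans-Golgi network, rose from 15.3 FPKM in wild type to 35.8 in the library labelled Epc-dKO (log2 ratio 1.17). Its exons overlap those of Gm6288 on the opposite strand in GENCODE M21, a gene with no value in the table under that symbol. Among its neighbours on chromosome 6, Ergic2, for a protein of the transport between endoplasmic reticulum and Golgi, had 21.9 and 31.6 (0.51), and Far2 and Tmtc1 were below an FPKM of 1 in both libraries. RefSeq gives 2 starts for Ccdc91, and neither window held any of the 4 motifs. The window of the upstream start (GRCm38.p6, chr6:147475621-147475920, plus strand) is shown because Ccdc91 is the only riser with an entry.
Ccdc91: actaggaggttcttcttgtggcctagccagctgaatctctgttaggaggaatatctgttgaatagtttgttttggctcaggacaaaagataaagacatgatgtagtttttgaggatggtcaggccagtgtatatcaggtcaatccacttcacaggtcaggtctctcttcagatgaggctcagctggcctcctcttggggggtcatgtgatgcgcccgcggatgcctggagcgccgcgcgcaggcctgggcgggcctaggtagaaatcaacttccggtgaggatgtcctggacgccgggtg

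At the other end, Ccdc64, listed as Bicdl1, for an adaptor of dynein-driven vesicle transport, had 2.54 FPKM in wild type against 1.10 in the library labelled Epc-dKO. Its log2 ratio of -0.75 was the lowest of the 111 and did not pass 2-fold. With a pseudocount of 0.1 it was -1.14, past 2-fold, as it was on the TPM scale. The Girdin gene Ccdc88a and its relatives, regulators of cell polarity and of signalling by G proteins, differed in level: Ccdc88a had 32.6 and 32.2, Ccdc88c 31.1 and 34.8, and Ccdc88b 4.63 and 3.48. The subunits of the COMMD complex of endosomal sorting were low, with Ccdc93 at 1.44 and 0.932 and the X-linked Ccdc22 at 0.447 and 0.167. Ccdc53 (Washc3), a subunit of the actin-nucleating WASH complex, had 3.99 and 5.59. Of 15 listed COMMD and WASH partners 11 were in the table and 6 were expressed, with 0 that rose, 0 that fell and a median of -0.18. Commd3 was the most abundant of them, at 5.34 and 7.29, followed by Commd1 at 2.81 and 3.66.

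Mitochondrial members were low. Of 8 with a value, 4 were expressed, 1 of them above 0, with a median of -0.22. Ccdc56, listed as Coa3, an assembly factor of cytochrome c oxidase, had 4.46 FPKM in wild type against 2.71 in the library labelled Epc-dKO. The pore of the mitochondrial calcium uniporter, given as Ccdc109a (Mcu), lay below the minimum, with 0.465 and 1.27 (on the TPM scale it passed the minimum and 2-fold, at a log2 ratio of 1.13), and its inhibitory relative Ccdc109b (Mcub) had 0.121 and 0.110. Translation members were Ccdc124, a ribosome-binding factor, with 8.74 and 5.18 (-0.66), and Ccdc72 (Tma7), with 15.8 and 14.5 (-0.12). Both lay within 2-fold.

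Secreted, muscle and other somatic members were low. Of 8 only Ccdc85c was expressed, with 3.25 FPKM in wild type against 3.18 in the library labelled Epc-dKO. Ccdc80, a secreted matrix protein gene of stromal cells, had 0.188 and 0.121, and Ccdc3, also secreted, had 0.145 and 0.189. The remaining 33 members, in no role list, had 20 expressed genes, 11 above 0, and a median of 0.04. Among them Ccdc150 had 19.3 and 31.7 (0.68), the third highest ratio of all expressed Ccdc genes. Ccdc45, Ccdc46 and Ccdc21, listed by RefSeq as the centrosomal genes Cep95, Cep112 and Cep85, had ratios of 0.05, 0.27 and -0.15. The lowest of the 20 was Ccdc160, at 2.57 and 1.32 (-0.62), the only expressed member of 3 on the X chromosome.

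**Figure D4:**
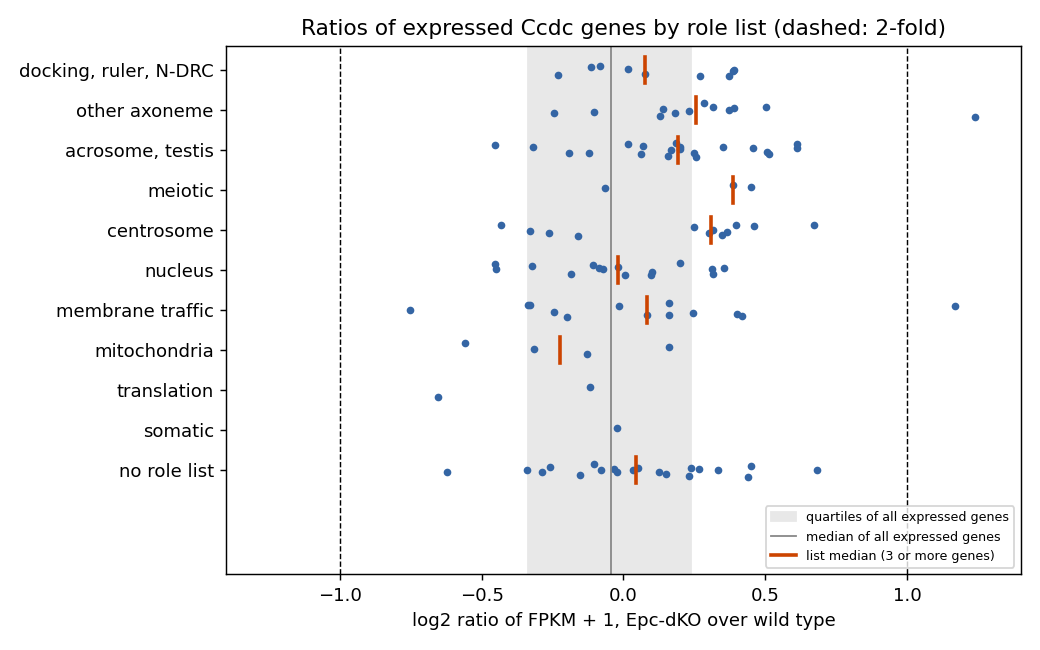
Log2 ratio of FPKM + 1 (library labelled Epc-dKO over wild type) for the 111 expressed Ccdc genes by role list; each point is a gene, orange bars are medians of lists with 3 or more expressed genes, the grey band spans the quartiles of all expressed genes (-0.34 to 0.24) and dashed lines mark 2-fold. Points past a dashed line are Ccdc42b and Ccdc91, and the medians reach from -0.22 in mitochondria to 0.39 in meiotic genes.

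A looser rule of 1.5-fold was passed by 6 members upward (5.41%, against 8.02% of all expressed genes) and by 3 downward (2.7% against 10.8%). The upward 6 were Ccdc42b, Ccdc91, Ccdc150, Ccdc66, Ccdc33 and Ccdc7, and the downward 3 were Ccdc64, Ccdc124 and Ccdc160. Both shares lay below the background. The ratios also went with level. Among members with a mean FPKM of 20 or more, 37 of 48 (77.1%) lay above 0, against 55.3% of all genes at that level, and the medians were 0.18 and 0.05. Between 5 and 20 the share was 13 of 28 (46.4% against 49.7%), and between 1 and 5 it was 18 of 35 (51.4% against 38.9%). The excess of members above 0 thus lay at the highest and the lowest of these levels, and no test of it is possible with 1 library per genotype.

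The 34 members below the minimum ranged from 0.00876 to 1.24 in the wild-type library and from 0.0151 to 1.27 in the library labelled Epc-dKO, and none was listed at 0. Sharing of exonic bases with another gene was common: 61 members, 45 of them expressed, shared some in GENCODE M21, Ccdc42b and Ccdc91 among them. Without these members, an alternative chosen after seeing the data, 66 expressed members remained, none of them past 2-fold either way, and the median was 0.09. Besides the pairs given above, Ccdc51 and Ccdc72 overlap each other on opposite strands, Ccdc107 overlaps the short RNA gene Rmrp, and Ccdc47 overlaps Strada on the same strand, with 2.10 and 2.68 beside 42.9 and 48.0.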

How the data were processed

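RNA-seq was performed on round spermatids, with 1 library per genotype. Libraries kept the strand (NEBNext Ultra Directional kit) and were PCR-amplified, per the labels' protocols. The authors deposited FPKM values per gene, and the submitters' processing notes name Cufflinks 2.2.1 and mm9. Aligner, annotation, strand setting and scaling: not given in the sources used here. Of 23235 table rows, 1 held library codes and was left out; 0 symbols were duplicated. The summed FPKM was 193611 for wild type and 198081 for Epc-dKO.

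Log2 ratios used a pseudocount of 1 on both libraries, a minimum mean FPKM of 1 and a 2-fold rule. Members were found by symbol, and all 145 matched RefSeq (107 by symbol, 38 by a synonym). Exon overlaps came from GENCODE M21 on GRCm38, not mm9, and sequence coordinates are those of GRCm38.p6. The rule for named genes took Ccdc39, Ccdc40 and Ccdc136, members past 2-fold, the 10 most abundant, the 2 most abundant and 2 most changed of each list, and for partner lists the 2 most abundant; other genes were chosen after their values were seen. The members and lists were chosen with earlier results of these data known. Alternatives were other pseudocounts, minimums, scalings, folds and subsets of members. Python 3.11.15, NumPy 2.4.6, pandas 2.3.3 and Matplotlib 3.10.9 were used. A partner gene and a promoter window are not reported here.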

Additional observations from a re-analysis of the deposited data

How the results depend on the processing

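The rises of Ccdc42b and Ccdc91 passed 2-fold under every pseudocount, minimum and scaling tried, and both were left out without members sharing exons, where the count of higher members was 0. The count of lower members was 1 with a pseudocount of 0.1 (Ccdc64, -1.14) and 2 on the TPM scale (Ccdc64 at -1.11, and Ccdc115), where the count of higher members was 3, with Ccdc109a added (1.13). Under the 1.5-fold rule 6 were higher and 3 lower. The median of expressed members ranged from 0.05 with no minimum, which adds low genes, to 0.18 with a median ratio of 1, and was 0.07 on the TPM scale. The mitochondrial median was -0.33 with a pseudocount of 0.1 and -0.0796 with no minimum. The membrane traffic median became -0.0167 with no minimum and -0.0499 on the TPM scale, and both settings take in lower genes. The TPM scale raises every value while the minimum and the pseudocount stay at 1. It counted 130 members as expressed, against 111, and 15151 genes, against 10438. How much of the TPM shift came from the added genes was not tested. Over all genes, the TPM scale gave 545 higher (3.6%) and 1054 lower (6.96%). A pseudocount of 0.1 gave 433 (4.15%) and 652 (6.25%), against 287 (2.75%) and 196 (1.88%) in the main setting. Genes named by the rule kept their side of 2-fold in 310 of 312 comparisons, the 2 exceptions being Ccdc64. Comparisons that changed only the minimum FPKM are in this count, and in them the ratio of a gene cannot change. Genes named after their values were seen are not in this count. No paired analysis was possible because there is only 1 library per genotype. Low members cannot be judged further, since their depth is unknown.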
